A study of Homo sapiens and Mus musculus with 30 samples.

Results

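The immediate early and activity-induced genes are a set of 10 genes chosen by name: IER2, IER3, FOS, FOSL1, JUN, JUNB, EGR1, NR4A1, NR4A2 and RCAN1. They were looked up by exact symbol, in title case for mouse. Of the 10, the HEK293A table over LIN28B levels, with 11342 genes, lists 6, namely IER2, FOSL1, JUN, JUNB, NR4A1 and RCAN1. The NIH3T3 table, with 41128 genes, and the let-7a table, with 57820 genes, list all 10. Every gene in the HEK293A level table had at least 1 RPKM of total RNA at each of the 5 levels. IER3, FOS, EGR1 and NR4A2 are not in it, so their levels across LIN28B levels in HEK293A were not analysed here. RPKM stands for reads per kilobase of a gene per M counted reads (M, mega), a scale on which genes of different length can be compared.

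Immediate early genes are transcribed within minutes of a growth factor, stress or calcium signal, without new protein synthesis, and their messenger RNAs are mostly short-lived. Kinases of the MAPK cascade act on serum response factor with its partners and on CREB and ATF proteins at the promoters of these genes. Their products are largely transcription factors that switch on a second wave of genes: JUN and FOS family proteins pair to form AP-1, EGR1 is a zinc finger factor, and NR4A proteins are orphan nuclear receptors. In dividing cultured cells serum in the medium keeps part of this programme active.

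The study asked how translation across the transcriptome changes with the amount of LIN28B, a protein that binds RNA, keeps let-7 microRNAs from maturing and sits on many messenger RNAs. It used HEK293A cells, which derive from human embryonic kidney, and NIH3T3 cells, which are mouse embryonic fibroblasts, both grown in DMEM with 10% serum. Transgenes were induced with doxycycline at 10 ng/ml. In HEK293A, X0 cells were LIN28B knockouts, either transfected with let-7a at 10 nM (1 polysome and 1 total RNA library) or left untransfected, and X1, X2, X3 and X4 carried rising amounts of LIN28B. In NIH3T3 the levels X0 to X4 follow the same order, and the titles name no knockout. Each level of each line had 1 polysome RNA library, meaning RNA recovered with ribosomes, and 1 total RNA library. With the let-7a pair this makes 22 libraries out of 30. The remaining 8 hold small RNA of HEK293A, from knockout or X3 cells, with let-7a at 10 nM or without. They are immunoprecipitated or total small RNA, with 1 library for each combination. The species of the transgene, the number of clones and whether X0 cells received doxycycline are not stated by the labels. No level has a replicate of its own, so p-values measure scatter about a straight line over 5 levels.

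LIN28B total RNA in HEK293A stood at 3.60, 23.0, 33.4, 81.2 and 208 RPKM over X0 to X4. In NIH3T3 mouse Lin28b had 1, 1, 1, 9 and 42 reads of total RNA over the same levels. Of 9 markers of HEK293A, 6 were listed in its table, all but NEFM, SOX11 and PAX2, with 251.5 to 303.7 RPKM summed over them. None of 10 leukocyte, epithelial and endothelial markers was listed there. In NIH3T3 the same list summed to 1223 to 2995 RPKM, of which Vim, also a fibroblast marker, had 1221 to 2994. Because of Vim the sum of the HEK293A list does not tell the lines apart, but single markers did. KRT18 had 48.4 to 57.2 RPKM in HEK293A and at most 0.032 in NIH3T3, KRT8 45.4 to 54.9 and at most 0.73, and NEFL 14.4 to 23.4 and at most 0.012. Only 1 of the 9, Vim, reached a mean of 1 RPKM in NIH3T3. The HEK293A table also listed 4 of the 9 fibroblast markers. In NIH3T3 all 9 fibroblast markers were present at 7602 to 8637 RPKM summed, Ptprc, Epcam and Cldn4 were at 0 in every total RNA library, and of the leukocyte list Cd68 lay at 5.06 to 11.1 RPKM and Cd14 at 7.12 to 11.8 RPKM. HEK293A polysome libraries held 9.09 to 14.6 M reads and total libraries 37.7 to 56.0 M reads, while in NIH3T3 polysome libraries held 15.9 to 20.8 M and total libraries 16.1 to 25.0 M. In whole cultures, fewer cells with a transcript and less of it per cell cannot be told apart.

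The promoters of IER2, JUN and JUNB are shown because these 3 genes had the steepest changes of the set in HEK293A. Each line gives 250 bases up to the transcription start from RefSeq (GRCh38.p14), at chr19:13150161-13150410 on the plus strand for IER2, chr1:58784048-58784297 on the minus strand for JUN and chr19:12791236-12791485 on the plus strand for JUNB. Capitals mark the motifs searched.
IER2: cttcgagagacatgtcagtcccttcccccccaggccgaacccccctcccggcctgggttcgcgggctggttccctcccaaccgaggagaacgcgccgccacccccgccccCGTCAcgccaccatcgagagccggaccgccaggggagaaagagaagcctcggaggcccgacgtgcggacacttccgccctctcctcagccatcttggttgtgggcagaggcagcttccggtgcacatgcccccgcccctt
JUN: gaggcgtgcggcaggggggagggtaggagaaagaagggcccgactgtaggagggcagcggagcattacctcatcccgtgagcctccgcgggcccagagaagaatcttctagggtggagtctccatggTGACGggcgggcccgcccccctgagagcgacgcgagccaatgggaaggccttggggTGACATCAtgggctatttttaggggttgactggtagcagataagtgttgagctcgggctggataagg
JUNB: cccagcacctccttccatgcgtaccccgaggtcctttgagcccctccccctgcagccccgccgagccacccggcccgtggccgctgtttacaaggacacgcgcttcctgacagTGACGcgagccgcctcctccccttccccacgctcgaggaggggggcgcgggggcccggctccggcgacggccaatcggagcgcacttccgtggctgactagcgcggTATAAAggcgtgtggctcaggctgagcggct
IER2 and JUNB lie on the same chromosome with their windows 358.7 kb apart. RefSeq entries were found for 7 of the 10 genes, all but IER3, FOSL1 and NR4A2. TGACG, a CREB half-site searched on both strands, was found in a promoter of 6 of the 7, all but NR4A1, against 21.2% of 35116 RefSeq promoters of the same length. TGACNTCA, an ATF-type element that AP-1 pairs can also bind and that can overlap the half-site, was found in 2 of 7 (JUN and RCAN1), against 6.87% of promoters. Other forms of the AP-1 site were not searched. TATAAA, searched on the gene's strand, was found in 2 of 7 (FOS and JUNB), against 6.80%, and the CArG box of serum response factor in 2 of 7 (EGR1 and RCAN1), against 1.16%. The CArG box was searched as CC, 6 bases of A or T, then GG. Looser forms and sites further than 250 bases upstream were not searched, so a gene without a match here may still have a site. RCAN1 was represented by 6 windows and NR4A1 by 2, while each of the other genes had 1. A gene was counted if any of its windows held the motif, while the shares are per window. The counts and the shares thus differ in unit, and the number of windows favours a match for RCAN1. These matches describe the letters in the windows and locate no binding.

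In HEK293A the polysome RNA of IER2, JUN, JUNB and FOSL1 was highest at X0 and lowest at X4, while only JUN of these 4 had its total RNA in that order. Ribosome occupancy, taken as log2(polysome RPKM + 0.5) minus log2(total RPKM + 0.5), fell with LIN28B level for all 4. RCAN1 did not pass the test, and NR4A1 was too low in polysome RNA to be tested. The question was whether polysome RNA relative to total RNA followed LIN28B. Each fraction is scaled to its own library, so occupancy is a relative value and not the share of a transcript on ribosomes. A change in ribosome loading common to all genes would not show on this scale.

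IER2, a short nuclear protein induced early by serum, had 16.7, 9.81, 11.0, 6.22 and 3.85 RPKM of polysome RNA at X0, X1, X2, X3 and X4, from 636, 373, 310, 281 and 130 reads. Its total RNA was 14.8, 14.7, 15.3, 16.8 and 14.0 RPKM. The polysome value was highest at X0 and lowest at X4, with X1 and X2 close together, while total RNA stayed within a narrow band. Polysome RNA was 77.0% lower at X4 than at X0 and total RNA 5.73% lower. Occupancy was 0.17, −0.56, −0.45, −1.36 and −1.74 log2 units.

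JUN, the AP-1 subunit that can pair with itself or with a FOS protein, had 62.8, 37.9, 41.0, 23.7 and 12.4 RPKM of polysome RNA at X0 to X4, and 68.0, 58.8, 62.2, 57.8 and 43.9 RPKM of total RNA. Polysome RNA was 80.2% lower at X4 than at X0, and total RNA, also lowest at X4, was 35.4% lower. Its occupancy was −0.11, −0.63, −0.59, −1.27 and −1.78 log2 units. JUN was the most abundant of the 6 listed genes in both fractions at every level.

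JUNB, a weaker activator of AP-1 sites that can replace JUN in the dimer, had 15.5, 11.1, 12.0, 8.73 and 7.42 RPKM of polysome RNA at X0 to X4. Its total RNA was ordered differently, at 7.84, 9.78, 9.42, 12.4 and 10.4 RPKM, with X0 the lowest. Its polysome RPKM exceeded its total RPKM at X0, X1 and X2, and was below it at X3 and X4. Occupancy was 0.94, 0.18, 0.33, −0.49 and −0.46 log2 units.

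FOSL1, the FOS family protein that accumulates later and lasts longer than FOS, had 5.48, 4.02, 3.82, 2.49 and 2.17 RPKM of polysome RNA at X0 to X4, from 128, 94, 66, 69 and 45 reads. Its total RNA was level, at 7.19, 7.86, 7.82, 7.96 and 7.05 RPKM. Occupancy was −0.36, −0.89, −0.95, −1.50 and −1.50 log2 units, with a counting error of 0.22 at X4 from its few reads.

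NR4A1, the orphan receptor also called NUR77, was the lowest of the 6, at 0.861 to 1.23 RPKM of polysome RNA, with no steady order over levels, and 1.33, 1.71, 1.77, 2.16 and 1.91 RPKM of total RNA at X0 to X4. RCAN1, an inhibitor of the phosphatase calcineurin, had 5.66, 6.02, 5.99, 4.69 and 5.47 RPKM of polysome RNA at X0 to X4. Its total RNA ranged from 4.78 to 5.55 RPKM, and its occupancy was 0.16, 0.20, 0.23, −0.02 and −0.02 log2 units.

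**Figure D1:**
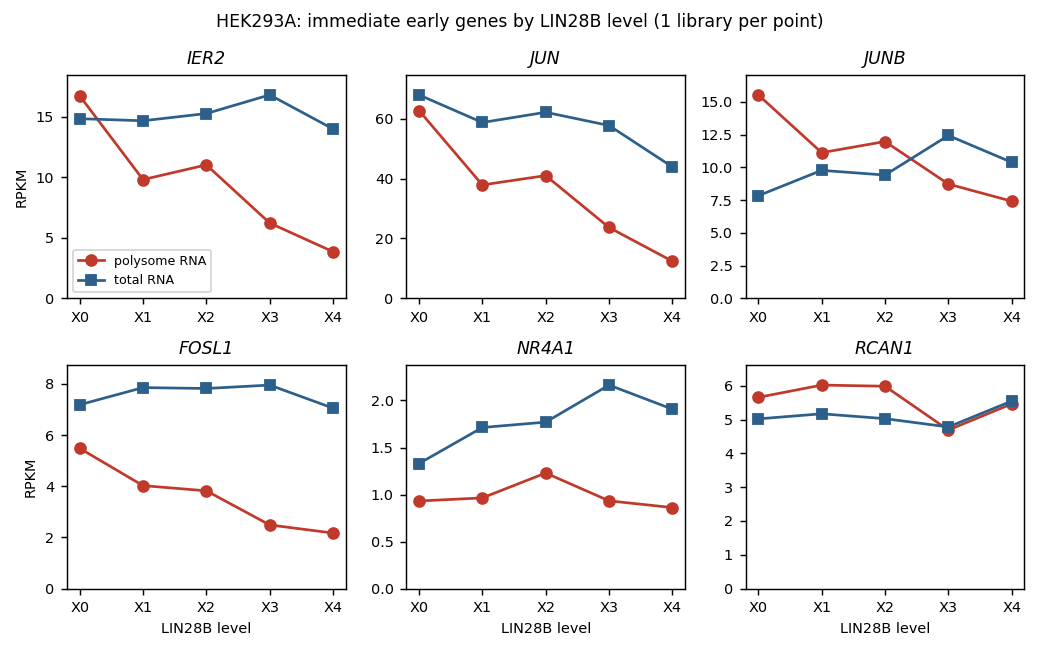
RPKM of polysome RNA (red circles) and total RNA (blue squares) in HEK293A at LIN28B levels X0 to X4, 1 library per point, with linear axes that start at 0. Polysome RNA of IER2, JUN, JUNB and FOSL1 is highest at X0 and lowest at X4, while IER2 and FOSL1 total RNA stays level.

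With limma, occupancy was regressed on the rank of the level in all genes whose mean reached 1 RPKM in both fractions (10428 genes), with Benjamini-Hochberg adjustment over that table. IER2 had a slope of −0.46 ± 0.06 log2 units per level (SE, adjusted p = 0.00266 in limma). JUN had a slope of −0.40 ± 0.06 (adjusted p = 0.00266) and JUNB of −0.35 ± 0.07 (adjusted p = 0.00315). FOSL1 had a slope of −0.29 ± 0.06 (adjusted p = 0.00301). RCAN1 had a slope of −0.06 ± 0.05 and did not pass (adjusted p = 0.359). Thus 4 of 5 tested genes of the set fell and 0 rose. Across all 10428 genes 40.1% fell and 20.7% rose (60.7% in either direction), so a fall was common in this line.

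The falls differed in size among the genes. The median slope was −0.35 over the 5 tested genes and −0.07 over all 10428 genes. Ranked from the lowest slope, IER2 was at place 6, JUN at 41, JUNB at 340, FOSL1 at 1333 and RCAN1 at 5377. At X4 occupancy relative to X0 was −1.90 for IER2, −1.67 for JUN, −1.40 for JUNB and −1.14 for FOSL1, against a median of −0.31 over all genes. X0 had the highest occupancy in 4 of the 5, all but RCAN1, where 45.5% of all tested genes had that order. For all 5 tested genes every one of X0, X1 and X2 had a higher occupancy than X3 and X4, an order shown by 42.8% of all tested genes. Both orders rest on the same libraries for all the genes.

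After the trimmed mean of each library was subtracted, which removes most of the shift of the bulk, the 4 genes still fell, with slopes of −0.40 for IER2, −0.34 for JUN, −0.29 for JUNB and −0.23 for FOSL1. With that centring 3120 of all genes rose (29.9%) and 3104 fell (29.8%), where 2155 rose and 4177 fell as deposited. RCAN1 then had a slope of 0.00. Without the X4 libraries 0 genes of the whole table passed in limma, with 1365 higher and 3005 lower at an unadjusted p under 0.05, and the slopes of the 4 genes ran from −0.34 for JUN to −0.45 for IER2. Without X0, IER2 and JUN passed but JUNB (adjusted p = 0.0683) and FOSL1 (adjusted p = 0.0700) did not. NR4A1, fitted with no filter on low values, had a slope of −0.12 ± 0.06 (adjusted p = 0.0853).

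**Figure D2:**
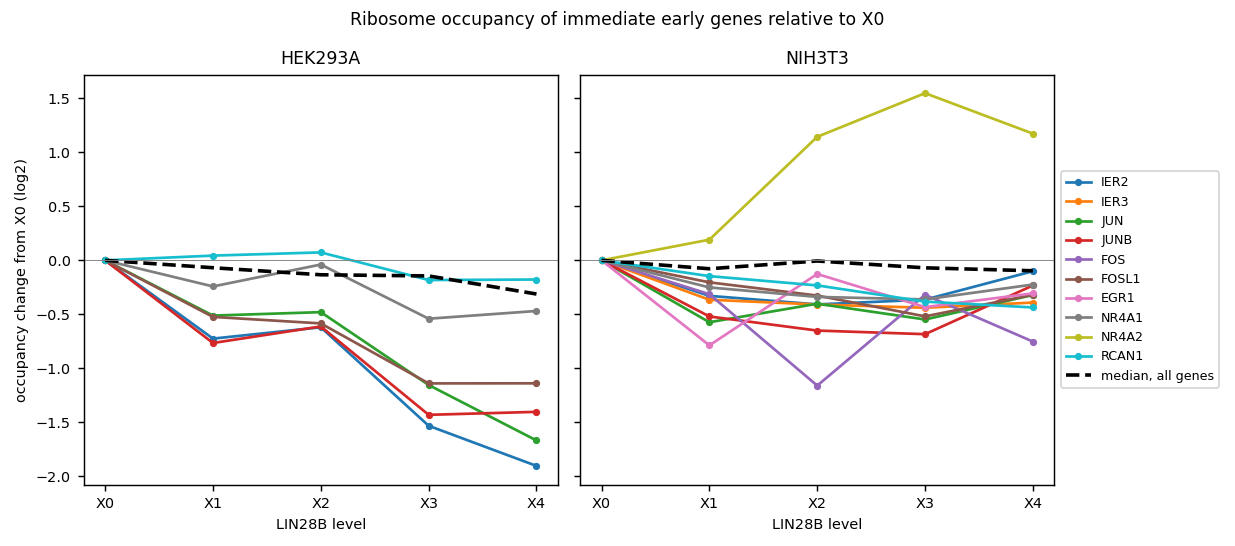
Change in ribosome occupancy from X0, in log2 units, for HEK293A (left, 6 genes) and NIH3T3 (right, 10 genes) at each LIN28B level, with the median of all tested genes as a dashed black line. In HEK293A IER2, JUN, JUNB and FOSL1 reach −1.14 to −1.90 at X4 while the median of all genes is −0.31. In NIH3T3 only Nr4a2 lies above the X0 value at any level among the 10 genes.

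For total RNA in HEK293A none of 6 genes passed in limma, at a background of 0.758% lower and 1.48% higher (2.24% in all) among 11342 genes. JUN had a slope of −0.13 ± 0.03 (SE, adjusted p = 0.0690), JUNB of 0.11 ± 0.04 (adjusted p = 0.166) and NR4A1 of 0.11 ± 0.03 (adjusted p = 0.150). These 3 had unadjusted limma p-values of 0.00240, 0.0162 and 0.0131, at a threshold of 0.05 that 8.01% of all genes passed as lower and 10% as higher. Their slopes stood at percentiles 1.12, 96.9 and 96.5 of all genes. edgeR on recovered reads called 0 of the 6 as well. IER2, FOSL1 and RCAN1 had slopes of 0.00, 0.00 and 0.02. JUN passed as lower when X1 (adjusted p = 0.0330) or X2 (adjusted p = 0.0412) was left out, and JUNB (adjusted p = 0.0389) and NR4A1 (adjusted p = 0.0430) passed as higher when X4 was left out, so these calls turn on single libraries.

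By mean total RNA per length the order in HEK293A was JUN, IER2, JUNB, FOSL1, RCAN1 and NR4A1. The ranges over the 5 libraries overlapped between JUNB and FOSL1, and between no other neighbours. JUN, as the most abundant, was compared with all genes at a mean of at least 5 RPKM in both fractions. Over the 10 libraries, centred within each fraction, the closest profiles were those of TST (Pearson r = 0.995), UBTF (r = 0.995) and ABCA3 (r = 0.995). Such values were common, since 1761 of 6036 genes exceeded r = 0.9.

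Other genes of the same signalling network were read from lists of gene names, against 40.1% of all genes falling and 20.7% rising with a median slope of −0.07, and 29.8% falling and 29.9% rising when centred. Of 13 other immediate early transcription regulators tested for occupancy in HEK293A, 10 fell and 1 rose, with a median slope of −0.20. IER5, a relative of IER2, had a slope of −0.34, HES1, a Notch-responsive repressor, −0.33, and the helix-loop-helix inhibitors ID3 and ID1 −0.34 and −0.31. Centring left 6 of the 13 falling and 1 rising.

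Of 15 feedback inhibitors 10 fell and 0 rose, with a median slope of −0.19, where 40.1% of all genes fell. After centring 6 of the 15 fell, where 29.8% of all genes did. The MAPK phosphatases DUSP1, DUSP2 and DUSP4 had slopes of −0.34, −0.31 and −0.31, and NFKBIA, the inhibitor that holds NF-kappaB in the cytoplasm, −0.31. Of 10 secreted and signalling products 9 fell and 0 rose, with a median of −0.25, and 6 fell after centring, against the same shares of all genes. RHOB, a short-lived GTPase, had a slope of −0.34, the ephrin receptor EPHA2 −0.30, the stress protein GADD45B −0.29 and the matrix protein CYR61 −0.26.

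The MAPK and serum response factor list had 13 falling and 1 rising of 25, with a median of −0.16, against 12 and 4 after centring. Of all genes 40.1% fell and 20.7% rose as deposited, with a median of −0.07, and 29.8% fell and 29.9% rose when centred. MAPK3, the kinase ERK1, had a slope of −0.37, RPS6KA1, a kinase that ERK activates, −0.35, MKL1, an actin-sensing partner of serum response factor, −0.34, and MAP2K1, the kinase MEK1, −0.29. Calcineurin and NFAT genes had 6 falling and 1 rising of 12, with a median of −0.09, against 4 and 1 after centring. The falling counts were near the shares of all genes (40.1% as deposited, 29.8% centred), as was the median (−0.07 over all genes). Rising genes, 1 of 12 either way, were fewer than the 20.7% of all genes as deposited and 29.9% centred. CALM3 and CALM2, which encode the same calmodulin protein, went opposite ways, with slopes of −0.32 and 0.37. The factor NFATC1 had −0.27 and the calcineurin inhibitor CABIN1 −0.25.

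Of 10 other AP-1, CREB and ATF subunits, 3 rose and 3 fell, with a median of −0.11, against 4 and 3 after centring. These shares lay near those of all genes, of which 40.1% fell and 20.7% rose as deposited and 29.8% fell and 29.9% rose when centred. JUND, the third JUN protein and the one least dependent on stimulation, had a slope of −0.35, and MAFG −0.28. CREB1, which binds the CREB site, had 0.22 and ATF2, a partner of JUN, 0.24. All of these named slopes passed in limma, with adjusted p-values of 0.00266 to 0.00648 over all genes. In total RNA the 6 lists together held 3 calls, all higher: NAB1, a corepressor of EGR proteins (0.15), the ERK phosphatase DUSP5 (0.20) and ZFP36, which degrades AU-rich messenger RNAs (0.16). NAB1 was 1 of 13 other immediate early regulators tested, and DUSP5 and ZFP36 were 2 of 17 feedback inhibitors. Of all genes 1.48% were higher and 0.758% lower in total RNA. After centring 1 of the 17 and 0 of the 13 were higher, where 110 of 11342 genes were.

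**Figure D3:**
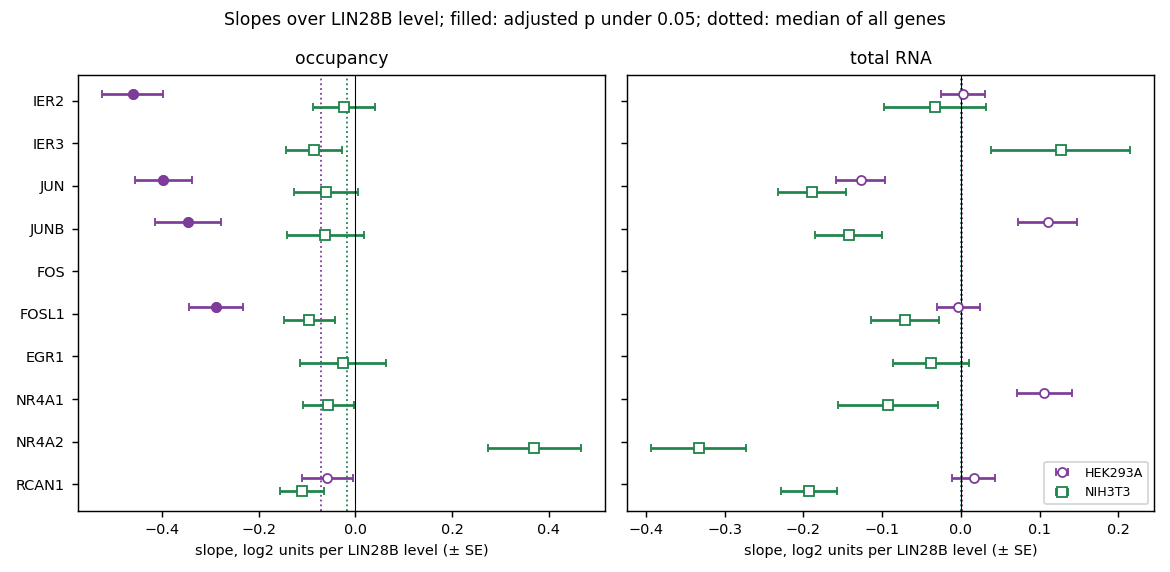
Slopes over LIN28B level with SE for occupancy (left) and total RNA (right), HEK293A as purple circles above NIH3T3 as green squares for each gene, filled where the adjusted p is under 0.05 and with the all-gene medians dotted. The 4 filled points are the HEK293A occupancy slopes of IER2, JUN, JUNB and FOSL1.

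In NIH3T3 no gene of the set passed for occupancy or total RNA, and no gene of the table did either. All 10 genes were listed and 9 were tested. Fos, the founding partner of Jun, was below the filter with 53, 41, 21, 37 and 14 polysome reads at X0 to X4 and 23, 24, 27, 22 and 17 total reads. Its level was 0.329 to 0.714 RPKM of total RNA.

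Ier3, a regulator of cell survival under stress, was the most abundant by mean total RNA, with 77.2, 116.6, 103.8, 86.6 and 103.5 RPKM of polysome RNA at X0 to X4. Its total RNA was 54.4, 106.0, 97.3, 83.0 and 95.8 RPKM, lowest at X0. The mean of X1 to X4 was 0.80 log2 units above X0, which is 1 library, so that a change and a deviation of that library cannot be told apart. Without X0 the Ier3 total RNA slope over X1 to X4 was −0.067 log2 units per level. Ier2 was flatter, at 41.9 to 51.3 RPKM of polysome RNA and 33.3 to 46.5 RPKM of total RNA.

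Jun had 44.8, 26.0, 22.5, 20.6 and 20.7 RPKM of polysome RNA at X0 to X4, and 20.2, 17.5, 13.4, 13.6 and 11.6 RPKM of total RNA. Junb had 85.5, 55.2, 47.0, 45.2 and 46.1 RPKM of polysome RNA, and 45.4, 42.1, 39.3, 38.6 and 28.7 RPKM of total RNA. For both, polysome RNA at X0 stood apart from the other 4 levels, which lay close together. Fosl1 had 37.5 to 56.6 RPKM of polysome RNA, highest at X0, and 24.5 to 32.5 RPKM of total RNA, lowest at X4.

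Nr4a1, below only Ier3 in mean total RNA, had 114.8, 105.1, 99.3, 97.8 and 70.9 RPKM of polysome RNA at X0 to X4, with 48.6 to 73.9 RPKM of total RNA, lowest at X4. Egr1, the zinc finger factor, had 15.9, 7.30, 11.2, 10.1 and 10.8 RPKM of polysome RNA and 10.6 to 13.7 RPKM of total RNA. Its polysome RNA was highest at X0 and lowest at X1, with no steady order between.

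Nr4a2, also called Nurr1, differed from the other 9 genes in the direction of its occupancy, while its total RNA slope was below 0 like that of most of the set. Its total RNA was 6.94, 6.99, 5.23, 4.08 and 2.50 RPKM at X0 to X4, while its polysome RNA was 3.04, 3.57, 5.53, 5.88 and 2.72 RPKM. Polysome RNA was thus highest at X2 and X3 and lowest at X4, and occupancy was −1.07, −0.88, 0.07, 0.48 and 0.10 log2 units at X0 to X4. Rcan1 showed a steady order in both fractions, with 64.8, 53.1, 41.5, 33.5 and 28.1 RPKM of polysome RNA and 30.05, 27.3, 22.6, 20.2 and 17.6 RPKM of total RNA at X0 to X4.

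**Figure D4:**
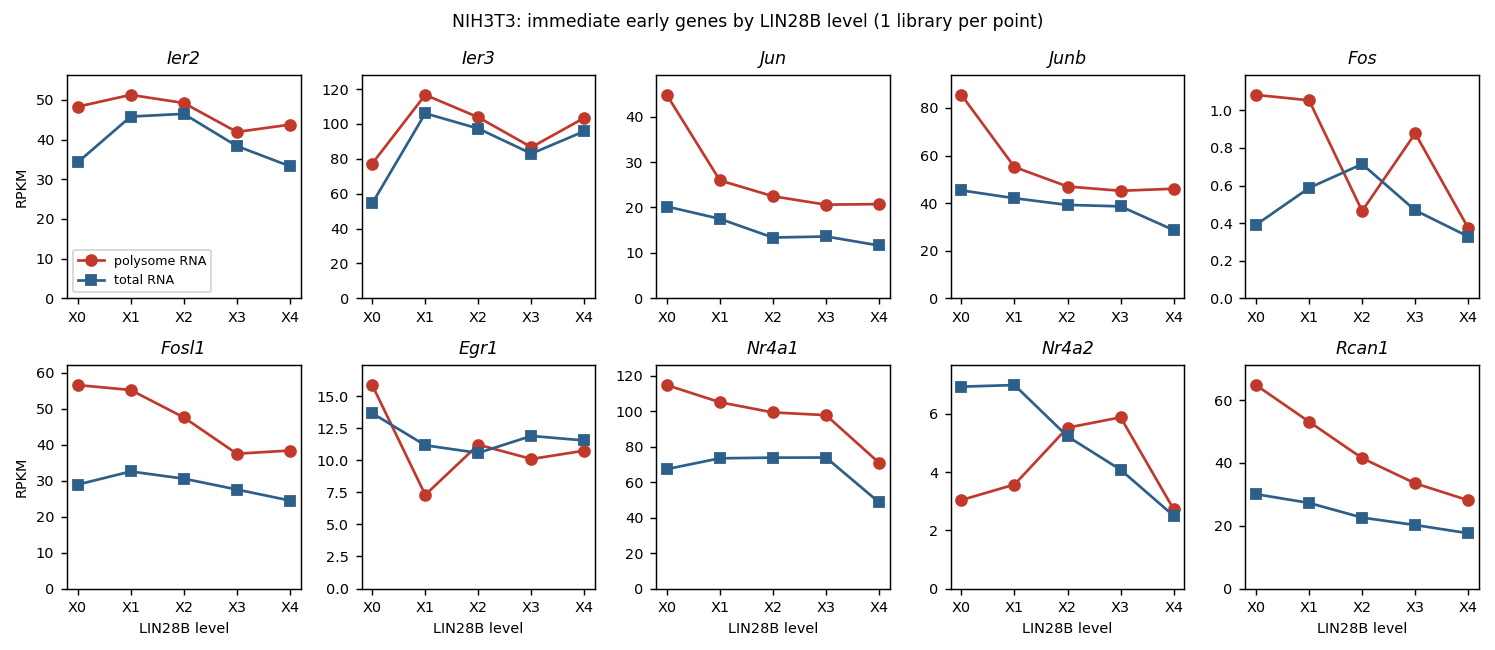
RPKM of polysome RNA (red circles) and total RNA (blue squares) in NIH3T3 at LIN28B levels X0 to X4, 1 library per point, with linear axes that start at 0. Jun and Junb polysome RNA is highest at X0, Rcan1 is lower at each further level in both fractions, and Nr4a2 total RNA is lowest at X4.

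The 9 tested genes had total RNA slopes below 0 in 8 cases, with a median of −0.09 per level against 0.00 over all 10348 genes. Nr4a2 had −0.33 ± 0.06 (SE, unadjusted p = 0.00141 in limma), Rcan1 −0.19 ± 0.04 (0.00151), Jun −0.19 ± 0.04 (0.00428) and Junb −0.14 ± 0.04 (0.0151). Their adjusted p-values lay between 0.339 and 0.393. At the unadjusted threshold these 4 of 9 compare with 3.64% of all genes lower and 7.33% higher (377 and 759 genes), while the adjusted test called 0% of the table. edgeR on recovered reads also called 0 genes, with 606 higher and 697 lower at an unadjusted p under 0.05. Total RNA at X4 was below that at every other level in 7 of the 9 genes, an order found in 13.8% of all genes tested. The 7 genes share 1 X4 library, so they are not separate observations of X4, and the order was chosen after the values were seen. Without X4 the slopes of Ier2 (0.051) and Nr4a1 (0.040) lay above 0, while those of Nr4a2, Rcan1, Jun, Junb and Fosl1 stayed below 0.

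Occupancy slopes in NIH3T3 were close to 0 for most of the set, with a median of −0.06 against −0.02 over 9996 genes, of which 0% passed the adjusted test. Nr4a2 had 0.37 ± 0.10 (SE, unadjusted p = 0.00622 and adjusted p = 0.630 in limma) and stood at the 99.4th percentile of all slopes. Rcan1 had −0.11 ± 0.05 (unadjusted p = 0.0436, adjusted p = 0.630), and the other 7 lay between −0.10 and −0.02. At the unadjusted threshold 2.86% of all genes were lower and 2.31% higher (286 and 231 genes), and edgeR on recovered reads called 0 genes, with 539 higher and 111 lower at that threshold. X0 had the highest occupancy in 8 of the 9 genes, all but Nr4a2, where 34.4% of all tested genes had that order. The 8 genes share the same X0 libraries, and the order was chosen after the values were seen. Without the X0 libraries the slopes of Ier2, Jun, Junb, Nr4a1 and Egr1 lay above 0, so their sign in NIH3T3 rests on that level.

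By mean total RNA the order in NIH3T3 was Ier3, Nr4a1, Ier2, Junb, Fosl1, Rcan1, Jun, Egr1, Nr4a2 and Fos. The ranges over levels overlapped between all neighbours except Nr4a1 and Ier2, Egr1 and Nr4a2, and Nr4a2 and Fos. Over the 10 libraries the profiles closest to Ier3 were those of Dnlz (Pearson r = 0.981), Tsku (r = 0.979) and Zfp428 (r = 0.979), and 322 of 6062 genes exceeded r = 0.9. The 6 lists of related genes held 0 calls in NIH3T3 in limma. Their median total RNA slopes ran from −0.16 for calcineurin and NFAT genes to 0.00 for MAPK genes.

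With values as deposited, the occupancy slopes of IER2 and JUN over level passed a test of difference between the lines, but not after centring. In a joint limma model over 6585 shared symbols, the HEK293A slope minus the NIH3T3 slope was −0.44 ± 0.09 for IER2 (SE, adjusted p = 0.0439) and −0.34 ± 0.09 for JUN (adjusted p = 0.0463). JUNB had −0.28 ± 0.11 (adjusted p = 0.0917) and FOSL1 −0.19 ± 0.07 (adjusted p = 0.0865), and neither passed. RCAN1 had 0.05 ± 0.07 (adjusted p = 0.561). The median difference over all 6585 symbols was −0.13 as deposited and −0.03 when centred. Of 5 tested genes 2 were lower and 0 higher in HEK293A, where 9.35% of all genes were lower and 0.82% higher (10.2% in all). Both calls were lost when the libraries were centred (adjusted p = 0.0577 for IER2 and 0.120 for JUN) and when X0, X1, X3 or X4 was left out, with adjusted p-values of 0.0874 to 0.334. The JUN call was also lost after quantile normalization (0.0554) and with no filter on low values (0.0505).

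For total RNA slopes 0 of 6 genes and 0% of 6809 shared symbols passed in limma, with 439 higher and 670 lower at an unadjusted p under 0.05. Differences were above 0 for all 6, with 0.25 ± 0.06 for JUNB (adjusted p = 0.140), 0.21 ± 0.04 for RCAN1 (adjusted p = 0.0985) and 0.20 ± 0.08 for NR4A1 (adjusted p = 0.253).

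In knockout HEK293A cells given let-7a, IER2, JUNB and FOSL1 had more total RNA than in the untransfected knockout. The microRNA let-7a silences messenger RNAs that pair with its seed, bases 2 to 8, shown in capitals in the RefSeq mature sequence.
hsa-let-7a-5p: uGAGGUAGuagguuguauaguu
This comparison sets 1 library of each fraction against 1, so there is no test, and the transfected and untransfected values come from separately made tables. No mock-transfected library was used here, so let-7a and the transfection cannot be told apart. Errors are counting errors from recovered reads alone.

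FOSL1 had 23.6 RPKM of total RNA with let-7a and 7.19 RPKM untransfected, and 32.6 against 5.48 RPKM of polysome RNA. JUNB had 20.8 against 7.84 RPKM of total RNA and 22.4 against 15.5 RPKM of polysome RNA. IER2 had 33.2 against 14.8 RPKM of total RNA and 39.4 against 16.7 RPKM of polysome RNA. For all 3 the let-7a library was higher in both fractions.

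JUN had 89.3 against 68.0 RPKM of total RNA and 61.4 against 62.8 RPKM of polysome RNA. NR4A1 had 2.43 against 1.33 RPKM of total RNA and 2.45 against 0.931 RPKM of polysome RNA. RCAN1 was nearly level in total RNA, at 5.22 against 5.02 RPKM, with 7.21 against 5.66 RPKM of polysome RNA. EGR1 had 27.2 RPKM of total RNA and 23.2 RPKM of polysome RNA in the let-7a libraries. NR4A2, FOS and IER3 had 1.97, 1.79 and 0.994 RPKM of total RNA there. These 4 have no untransfected value in the level table, so whether they differed cannot be told.

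**Figure D5:**
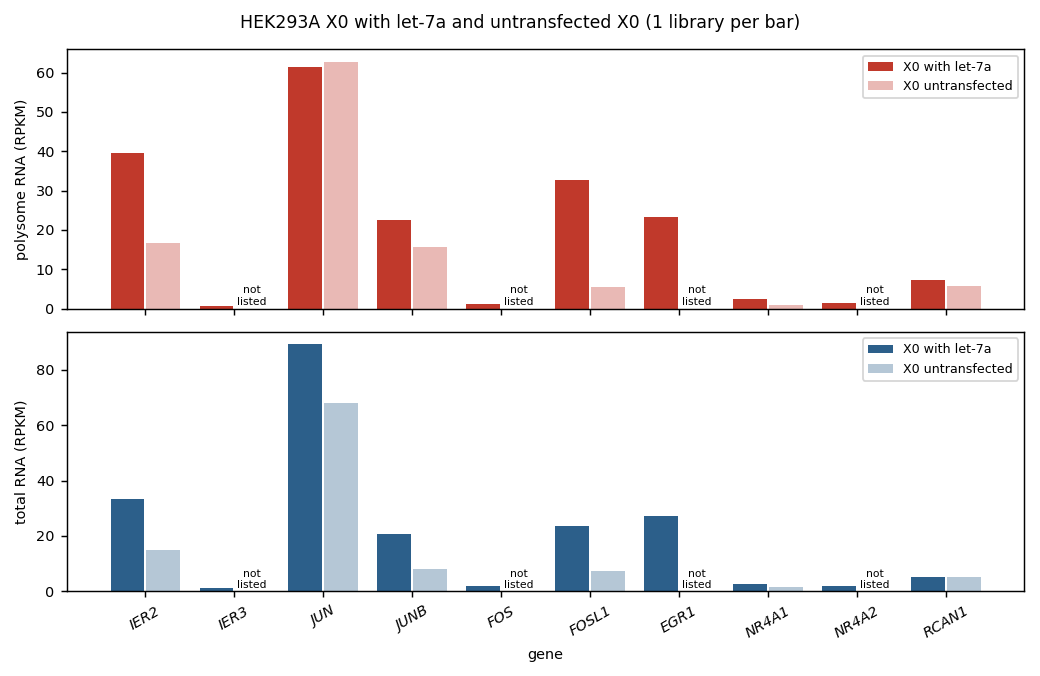
RPKM of polysome RNA (top) and total RNA (bottom) for the 10 genes in HEK293A X0 with let-7a (dark bars, left of each pair) and in untransfected X0 (pale bars), 1 library per bar, axes from 0. FOSL1, IER2 and JUNB are higher with let-7a in both fractions, while JUN polysome RNA is nearly equal.

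On the log2(RPKM + 0.5) scale total RNA was higher with let-7a by 1.65 ± 0.07 for FOSL1 (counting SE), 1.35 ± 0.07 for JUNB and 1.14 ± 0.04 for IER2. The differences were 0.68 ± 0.09 for NR4A1, 0.39 ± 0.02 for JUN and 0.05 ± 0.06 for RCAN1. The total RNA of 3 of 6 genes was thus higher by over 1 log2 unit and of 0 lower, where 2.27% of 11342 genes were higher and 1.55% lower, and the median of all genes was 0.00. In polysome RNA 3 of 6 genes, FOSL1, IER2 and NR4A1, were higher by over 1 log2 unit, and 0 were lower, where 11.8% of all genes were higher and 5.1% lower.

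Occupancy differences went in both directions, at 0.82 ± 0.16 for FOSL1 and 0.36 ± 0.22 for NR4A1, and at −0.84 ± 0.13 for JUNB and −0.42 ± 0.05 for JUN, with 0.27 ± 0.11 for RCAN1 and 0.08 ± 0.09 for IER2. None of the 6 moved by over 1 log2 unit, where 3.83% of all genes were higher and 1.29% lower by that much. The median of all genes was 0.15, and relative to the centred libraries JUNB was lower by over 1 log2 unit. The untransfected X0 libraries used here also enter the trends over LIN28B level, so the HEK293A values of X0 are shared between both.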

How the data were processed

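Polysome and total RNA from HEK293A and NIH3T3 at 5 LIN28B levels were analysed, with the let-7a libraries and 8 small RNA libraries of HEK293A. RPKM values were deposited by the authors in 3 tables with 1 column per level and fraction. The design text names 2 replicates for each, and whether these were pooled is not given. Per the labels' protocols libraries were made with an Illumina kit for polyA RNA. Per the submitters' processing notes cutadapt, STAR, hg19 and mm10 were used. The counting tool and its strand setting are not given in the sources available, so reads of a gene and an antisense partner could not be told apart. Raw counts were deposited for small RNA and used only to look up the 10 genes. Binding-site data were not used here.

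Whole reads were recovered from RPKM steps within a tolerance of 0.02 for 100% of genes above 0 in both lines and for 99.9% in the let-7a libraries. They gave depths, counting errors and an alternative test with edgeR 4.0.16. The main test was a straight line over rank 0 to 4 in limma 3.58.1 (R 4.3.3), with a pseudocount of 0.5 RPKM, a mean of at least 1 RPKM in each fraction used, a variance trend, Benjamini-Hochberg adjustment over all genes tested and a threshold of 0.05. Scripts were tested on simulated data. Other pseudocounts, filters, scalings, a contrast of X1 to X4 against X0, a variance trend over mean expression and each level left out were tried.

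The genes, the related lists and the tests were chosen with earlier results of these data known. All 10 genes are named wherever listed, those past the threshold with every library, and related genes up to 4 per list and trend by smallest p. Ier3, Jun, Junb, Nr4a1, Egr1, Nr4a2, Rcan1, NR4A1, RCAN1 and the let-7a levels are given per library beyond that rule, and the orders of levels (X0 highest, X4 lowest) were chosen after the values were seen.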

Additional observations from a re-analysis of the deposited data

Results flagged for a closer look

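For IER2 the HEK293A occupancy slope minus the NIH3T3 slope was −0.44 log2 units per level in the joint limma model. A level need not mean the same amount of LIN28B in both lines, so response and amount cannot be told apart. Polysome RNA of IER2 at X4 was 3.85 RPKM in HEK293A and that of Ier2 43.8 RPKM in NIH3T3, where the X0 values were 16.7 and 48.3 RPKM.

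The same test of the difference singled out JUN, at −0.34 log2 units per level. Occupancy at X4 relative to X0 was −1.67 for JUN in HEK293A and −0.32 for Jun in NIH3T3. Neither difference passed when the libraries were centred.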

How the results depend on the processing

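Each level rests on 1 library per fraction, so a slope and a single deviating library cannot be told apart, and Fos, FOSL1 and NR4A1 rest on few polysome reads. Over all alternatives 457 values for single genes kept their direction and side of the threshold, 22 lost the threshold, 5 gained it and 23 changed sign. No paired analysis was possible because the labels give no replicate numbers and each group is 1 library.

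Leaving out each level in turn, the genes of the set called in HEK293A ranged from 0 to 1 lower and 0 to 2 higher for total RNA, and from 0 to 4 lower for occupancy. In the difference of occupancy slopes 0 to 2 were lower, with 2 called when X2 was left out. With X1 to X4 against X0, 0 genes of the set were lower for HEK293A occupancy and 1, Ier3, was higher for NIH3T3 total RNA, a contrast whose X0 arm is 1 library assumed to vary like the others. In the difference of occupancy slopes 1 gene of the set was lower with no filter, 0 with centring and 1 with quantile normalization. For let-7a, 1 gene was lower in occupancy by over 1 log2 unit after centring.

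Changes of sign concerned slopes that did not pass in the main fit. With each level left out in turn, HEK293A total RNA slopes ran from −0.019 to 0.058 for IER2, −0.041 to 0.041 for FOSL1 and −0.023 to 0.031 for RCAN1. NIH3T3 total RNA slopes ran from −0.16 to 0.051 for Ier2, −0.18 to 0.040 for Nr4a1, −0.067 to 0.19 for Ier3 and −0.065 to 0.030 for Egr1. NIH3T3 occupancy slopes ran from −0.15 to 0.061 for Jun, −0.12 to 0.073 for Ier2, −0.22 to 0.083 for Junb, −0.12 to 0.0057 for Nr4a1 and −0.095 to 0.11 for Egr1. With X1 to X4 against X0, total RNA was 0.087 for FOSL1 in HEK293A and 0.24 for Ier2 in NIH3T3. HEK293A total RNA of IER2 was −0.0021 when centred and −0.00079 after quantile normalization. HEK293A occupancy of RCAN1 was 0.0030 when centred, 0.012 after quantile normalization and 0.0031 in edgeR, and NIH3T3 occupancy of Ier2 was 0.0042 after quantile normalization. The cause was not tested. Counts of all genes called varied more. HEK293A total RNA gave 86 lower and 168 higher, 37 and 80 with a filter of 5 RPKM, 64 and 110 when centred, 1 and 2 for X1 to X4 against X0, and 0 to 221 and 3 to 323 with a level left out. HEK293A occupancy gave 4177 lower and 2155 higher, 2531 and 1605 at 5 RPKM, 1 and 1 for X1 to X4 against X0, 1635 and 203 without X0, and 0 and 0 without X4. NIH3T3 total RNA gave 0 and 0, against 12 and 10 without X0 and 1052 and 1189 for X1 to X4 against X0. The difference of occupancy slopes gave 616 lower and 54 higher, 527 and 34 with no filter, 884 and 167 at 5 RPKM, 25 and 226 when centred, 157 and 216 after quantile normalization, 1123 and 94 without X2, and 0 and 0 without any other level.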

Other observations

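In the 8 small RNA libraries, with 73083 to 172995 counts each, the 10 genes had 3 counts in all, 1 for FOSL1 and 2 for NR4A2, and no more than 1 in any library.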
